A study of Mus musculus with 2 samples.

Results

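Primitive endoderm genes were followed in RNA sequencing of mouse embryonic stem cells (mESCs) after knockdown of the deubiquitinase USP21. The 10 genes were Gata4, Gata6, Sox17, Sox7, Pdgfra, Dab2, Foxa2, Hnf4a, Afp and Ttr, taken by symbol, and each was found once among the 23889 symbols of both deposited files. The cells were E14, a feeder-free line that was grown on gelatin in serum with LIF, the cytokine that keeps mESCs undifferentiated. 1 library came from cells transfected with a control shRNA, labelled as normal genotype, and 1 from cells transfected with an USP21 shRNA (the knockdown library, or knockdown cells), and both were harvested 3 days later. Which of the study's USP21 shRNA sequences was used is not given in the sources used here, and neither group had a replicate. The study asked whether mESCs need USP21 for self-renewal, and it used Gata4 and Sox17 as endoderm markers. By real-time PCR it reported increases of both genes in E14 cells that were infected with an USP21 shRNA virus. Their values in the libraries used here are given below.

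The primitive endoderm is the layer that covers the epiblast of the mouse blastocyst and later gives rise to the visceral and parietal endoderm of the yolk sacs. The epiblast releases FGF4, which acts through FGF receptors and ERK to favour GATA6, whereas NANOG represses Gata6 and holds cells in the epiblast state. GATA6 and GATA4 then act with SOX17 and SOX7 to set up the endoderm programme. Cultures of mESCs in serum and LIF are known to hold a minority of cells that express such genes.

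The values are FPKM, fragments counted relative to the length of the transcript and to the mapped fragments of the library. Over all symbols they added up to 613617 for control cells and 543206 for knockdown cells. Depth is not given, but low values moved in steps of 1 fragment, and these steps put the control library at 1.23 times the depth of the other (1439 genes under an FPKM of 0.1). In genes with a single annotated transcript, 1 fragment was worth about 32.5 in control cells and 37.5 after knockdown in FPKM times bases of transcript. Both are centres of neighbouring bins of width 5, too coarse to be compared with the depth ratio of 1.23. The targeted gene Usp21 went from an FPKM of 26.2 to 3.49, 13.3% of the control value. All 7 embryonic stem cell markers examined (Pou5f1, Sox2, Nanog, Zfp42, Esrrb, Dppa5a and Tdgf1) were well expressed, and their summed FPKM was 4190 in control cells and 3141 after knockdown. Among 7 fibroblast markers Thy1 stood at 17.3 and 5.29 (3.27-fold lower after knockdown), and Col1a1, the next highest, was at 0.801 and 0.560. Lum, a defining fibroblast marker, was listed at 0 in both libraries. The part of contaminating cells in the results was not tested beyond these values.

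All 10 genes had a value above 0 in both libraries, at levels that spanned about the same range in each. Dab2 was the most abundant, at an FPKM of 23.1 in control cells and 16.4 after knockdown. Gata6 and Gata4 came next in both libraries. The other genes of the control library followed in the order Sox7, Sox17, Pdgfra, Foxa2, Hnf4a, Ttr and Afp. With the USP21 shRNA the order was Pdgfra, Sox17, Sox7, Foxa2, Hnf4a, Afp and Ttr. Pdgfra and Sox7 thus exchanged the fourth and sixth places, and Ttr dropped to the last. FPKM is scaled to transcript length, so that levels of different genes can be set side by side, but without replicates no spread tells which neighbours in these orders differ. Dab2 lay at the 84.3 percentile of all symbols in the control library and Hnf4a at the 53.4 percentile. In RNA of whole cultures, fewer cells that express a gene and less RNA per cell cannot be told apart.

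**Figure D1:**
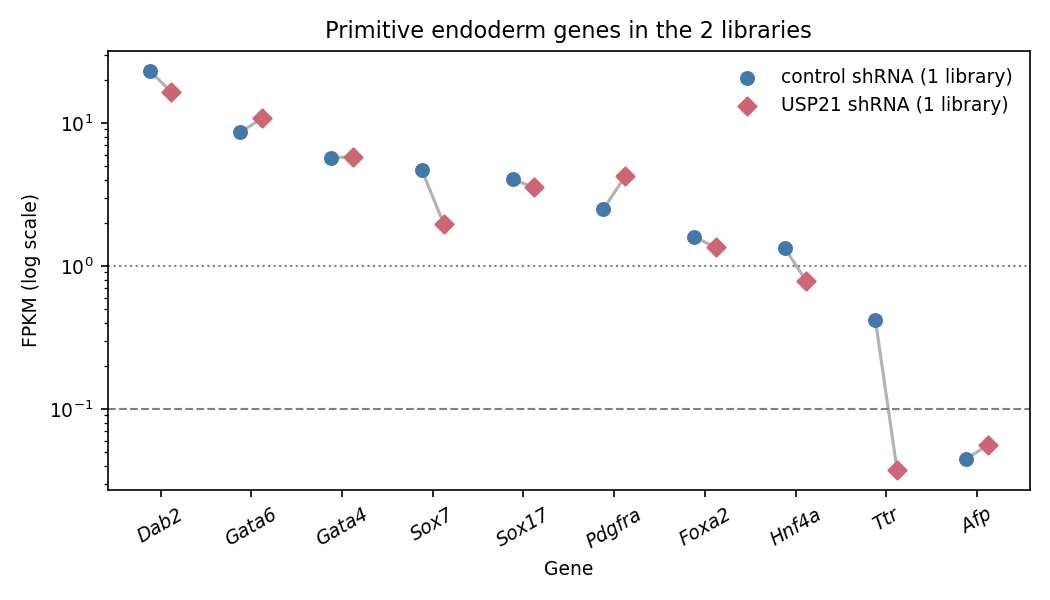
FPKM of the 10 primitive endoderm genes (log axis) in control cells (circles) and knockdown cells (diamonds), 1 library each, ordered by the control level. The dashed and dotted lines mark FPKM 0.1 and 1. The widest gaps are those of Ttr (0.420 and 0.0373) and Sox7 (4.68 and 1.97), followed by Hnf4a (1.33 and 0.781) and Pdgfra (2.48 and 4.22), which are nearly equal.

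The comparison of the libraries was expressed as the log2 of USP21 shRNA over control shRNA, with 0.1 added to each FPKM, which understates the change of low genes. A gene was counted as past 2-fold when this log2 ratio was at least 1 or at most -1 and its FPKM reached 1 in either library. Of the 10 genes 8 reached that level, Hnf4a only through its value in the control library. None of these 8 was higher past 2-fold, where 2.30% of all 11927 genes at that level were. Sox7 alone was lower past 2-fold, where 2.03% of all genes were. At 1.5-fold, Pdgfra was higher and Sox7 and Hnf4a were lower, against 7.77% of all genes higher and 6.46% lower. The median log2 ratio was -0.23 over the 9 genes whose FPKM reached 0.1 in either library, and 0.0046 over all 15316 genes past that filter. Of the 8 genes that reached FPKM 1, 3 had a log2 ratio above 0 and 5 below. Of all genes at that level 49.6% lay below 0, and of those that reached FPKM 10 the share was 54.0%. The sign counts and medians of the lists that follow are over genes that reached FPKM 1 in either library. Without replicates no test of these differences was possible, and the members and the lists were chosen with earlier results of these data known.

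The 6 transcription factors ranged from lower to higher, and their summed FPKM was 25.9 in control cells and 24.2 after knockdown. Gata6, the GATA factor that starts the endoderm programme, had an FPKM of 8.60 in control cells and 10.8 after knockdown, a log2 ratio of 0.32. Gata4, its relative that acts alongside it, had 5.70 and 5.78, a log2 ratio of 0.020. The GATA factors thus lay close together in both libraries, with Gata6 at 1.51 times the FPKM of Gata4 in the control and 1.86 times with the USP21 shRNA. Foxa2, a forkhead factor of endoderm, had 1.59 and 1.35. Hnf4a, a nuclear receptor of the visceral endoderm and liver, had 1.33 and 0.781, a log2 ratio of -0.70. Both were low in either library, and Hnf4a was the lower of them.

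The SOX factors parted. Sox7 had an FPKM of 4.68 in control cells and 1.97 after knockdown, which was 2.37-fold lower (log2 ratio -1.20). Sox17 had 4.02 and 3.54, a log2 ratio of -0.18. The control library therefore held slightly more Sox7 than Sox17, and the USP21 shRNA library clearly less, since the ratio of Sox7 to Sox17 went from 1.17 to 0.558. A ratio of genes within a library does not depend on how the libraries are scaled to each other. Sox7 had a highest FPKM between 1 and 10, a range in which 3.57% of 5100 genes were lower past 2-fold and 4.04% higher. Among the 6827 genes that reached 10, the shares were 0.879% lower and 0.996% higher.

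Sox7 and Sox17 encode SOX proteins with closely related DNA-binding HMG boxes, and reads from such stretches could be given to the wrong gene. Their transcripts in GENCODE M21 (GRCm38), from chromosomes 14 and 1, were therefore compared. The most alike 90 bases are shown 5′ to 3′ on the transcript strand, with the bases that differ between the genes in capitals.
Sox7: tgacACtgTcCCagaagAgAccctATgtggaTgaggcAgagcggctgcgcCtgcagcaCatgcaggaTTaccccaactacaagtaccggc
Sox17: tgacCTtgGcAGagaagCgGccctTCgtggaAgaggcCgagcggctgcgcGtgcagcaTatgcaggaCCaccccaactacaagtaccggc
The stretch runs from base 340 to 429 of the Sox7 transcript and from base 1982 to 2071 of the Sox17 transcript. It differs at 15 of 90 positions (83.3% identity), and the longest run without a difference anywhere in these transcripts was 22 bases. No 31-base word was thus common to the pair. Of the 31-base words of Sox7, 1.14% occurred in another annotated gene on either strand. For Sox17 the share was 24.1%, all with Gm37587, an annotated transcript of the opposite strand that is not among the symbols analysed here. Whether the libraries were stranded is not given in the sources used here, so RNA of that transcript could count as Sox17. Of the remaining genes, Gata6 shared 1.97% with 1010001N08Rik on the opposite strand, and the others shared less than that.

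The receptor and the adaptor went opposite ways. Pdgfra, the PDGF receptor that marks primitive endoderm cells, had an FPKM of 2.48 in control cells and 4.22 after knockdown, 1.70 times the control value (log2 ratio 0.75). Dab2, an endocytic adaptor needed for the endoderm to sort to the surface, had 23.1 and 16.4, a log2 ratio of -0.50. Set against Gata6 in the same library, Pdgfra went from 0.288 to 0.392 and Dab2 from 2.69 to 1.52. Among the genes that reached FPKM 1, the widest contrast was that of Pdgfra and Sox7, whose ratio was 0.530 in the control library and 2.14 in the other. Pdgfra has a long transcript (6.83 kb), and longer transcripts had higher log2 ratios over all genes (Spearman rho 0.33 for 11378 genes, a description across genes). With that trend removed, the log2 ratio of Pdgfra was 0.56 and that of Dab2 -0.58.

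**Figure D2:**
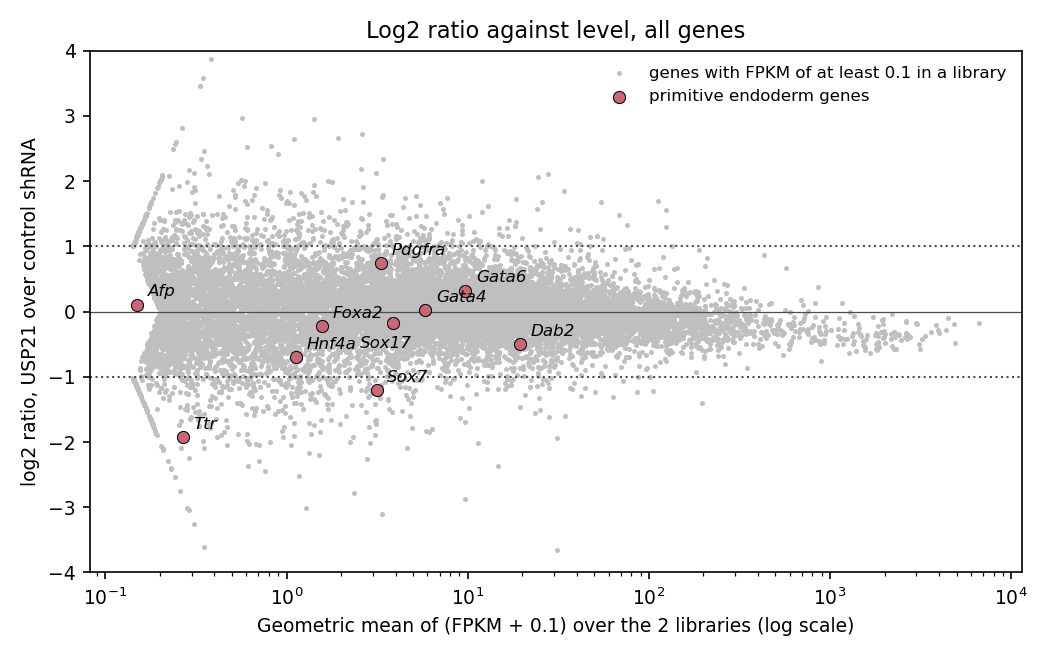
Log2 ratio of USP21 over control shRNA (FPKM + 0.1) against level (log axis) for genes that reached FPKM 0.1 in a library (grey) and the 10 primitive endoderm genes (red). 4 genes lie beyond the drawn range of log2 ratios, and the dotted lines mark 2-fold. Of the red points only Ttr and Sox7 lie below -1, and Pdgfra at 0.75 is the highest.

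The secreted proteins among the 10 genes, Ttr and Afp, were barely expressed. Ttr, the carrier of thyroid hormone and retinol-binding protein, had an FPKM of 0.420 in control cells and 0.0373 after knockdown. Afp, the fetal counterpart of albumin, had 0.0446 and 0.0558, and was the member that did not pass the filter of 0.1. From the step of 1 fragment seen in genes with a single annotated transcript, the values of Ttr correspond to about 15 fragments and about 1, and those of Afp to about 3 in each library. Such estimates use 1 annotated length per gene and are no counts. The same estimate gives about 475 and 174 fragments for Sox7, and about 521 and 770 for Pdgfra. Ttr had a log2 ratio of -1.92, which became -0.45 when 1 was added in place of 0.1 and -3.18 with 0.01.

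**Figure D3:**
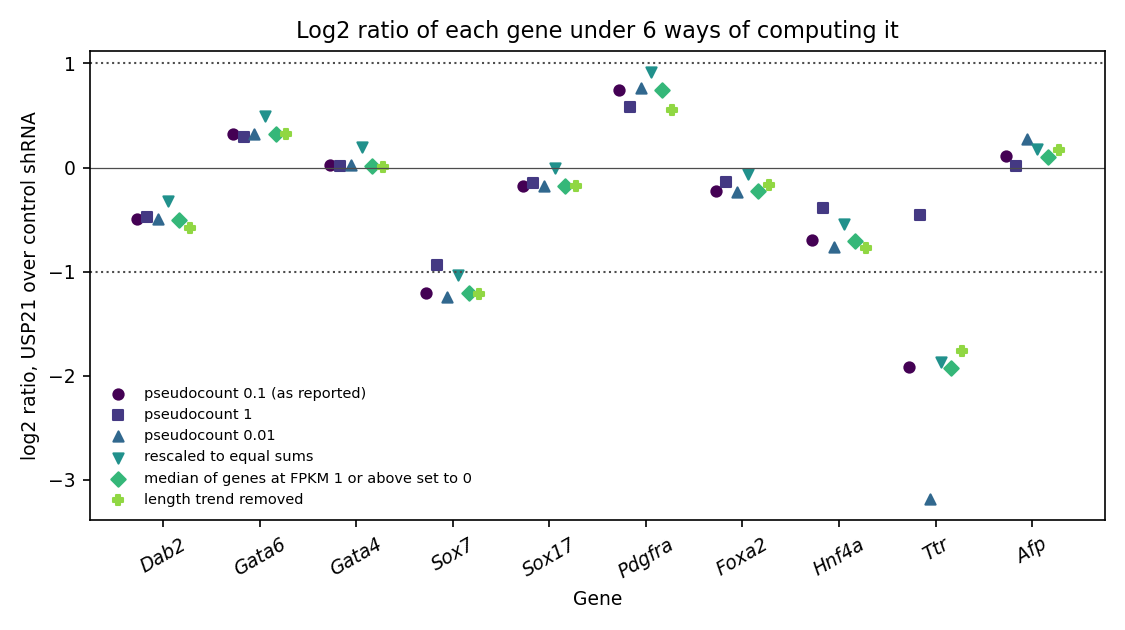
Log2 ratio of USP21 over control shRNA for each of the 10 genes with 1 library per group, computed in 6 ways that differ in the added constant, the scaling of the libraries or the removal of the length trend. Each gene keeps its side of 0, which a change of the added constant cannot alter. Sox7 lies between -1.24 and -0.93, and Ttr between -3.18 and -0.45.

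How far the scaling matters was also examined. Setting the libraries to the same sum of FPKM raised the median of all genes at FPKM 1 or above by 0.17 on the log2 scale. All genes higher and lower past 2-fold were 274 and 242 as deposited, and 449 and 154 after this rescaling. Against that shift Gata6 stood at 0.50, Gata4 at 0.19, Pdgfra at 0.92 and Sox7 at -1.04. Sox17 then stood at -0.0066, next to 0.

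The signal that favours the primitive endoderm was described with 15 genes of the FGF and ERK pathway, of which 12 had a log2 ratio above 0 and 3 below (median 0.32), where 49.6% of all genes at FPKM 1 lay below 0. Fgf4, the ligand, had an FPKM of 54.8 in control cells and 74.0 after knockdown. Fgfr1, the more abundant of the receptors listed, had 19.8 and 24.7. Fgfr2, the receptor typical of primitive endoderm, had 0.456 and 1.70, and it was the 1 gene of the list past 2-fold (3.73-fold higher). At such levels the ratio of Fgfr2 depends on the added constant, and with 1 in place of 0.1 no gene of this list was past 2-fold. With 0.1 added, 2.30% of all genes at FPKM 1 or above were higher past 2-fold. The lowest log2 ratio was that of the kinase Map2k1 (-0.28, with 61.2 and 50.6). Of the genes that ERK signalling induces, the feedback genes Dusp6, Spry4 and Spry2 had log2 ratios of 0.72, 0.59 and 0.35. The ETS factors Etv4 and Etv5 had 0.079 and 0.023, and so were nearly level.

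The epiblast factors lay below 0 in 11 of 11 genes (median -0.30), against 54.0% of all genes that reached FPKM 10, as all 11 did. None was past 2-fold, but with the length trend removed Tfcp2l1 was (log2 ratio -1.22). Among all genes that reached FPKM 10, 0.879% were lower past 2-fold as deposited. After rescaling to equal sums 8 of the 11 lay below 0. Tfcp2l1, a factor of naive pluripotency, had the lowest log2 ratio (-0.97, with an FPKM of 59.0 and 30.2), and Tbx3 the highest (-0.12, with 70.6 and 64.9). Nanog had 467 and 258. The ratio of Gata6 to Nanog was therefore 0.0184 in the control library and 0.0418 in the other, and that of Gata4 to Nanog 0.0122 and 0.0224.

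Genes of the basement membrane, which primitive endoderm cells lay down in quantity, lay above 0 in 10 of 10 genes (median 0.30), whereas 54.0% of all genes that reached FPKM 10 lay below 0. Sparc, a secreted matrix glycoprotein, had an FPKM of 94.9 in control cells and 191 after knockdown. Hspg2, which encodes the proteoglycan perlecan, had 33.4 and 67.3. Both were just past 2-fold (log2 ratio 1.01 each), and no other gene of the list was. Among all genes that reached FPKM 10, 0.996% were higher past 2-fold. With a constant of 1 added, only 1 of Sparc and Hspg2 was past 2-fold. The lowest was Nid1, with 33.4 and 33.6. The laminin gene Lama1 had a log2 ratio of 0.056, and the collagen gene Col4a1 had 40.8 and 53.3. With the length trend removed, 8 of 10 lay above 0 with a median of 0.20, and Sparc alone was past 2-fold (log2 ratio 1.06), whereas Hspg2 was at 0.65.

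Genes for uptake and secretion in the visceral endoderm lay on both sides of 0. Of 14 genes 9 had FPKM of at least 1, and 3 of these lay above 0 and 6 below (median -0.39). Lrp2, the endocytic receptor megalin that binds the adaptor encoded by Dab2, had an FPKM of 9.39 in control cells and 23.1 after knockdown (2.46-fold higher). The ratio of Dab2 to Lrp2 thus went from 2.46 to 0.708. Cubn, the receptor cubilin that works with megalin, had 6.83 and 7.06. Amn, which anchors cubilin to the membrane, had 6.94 and 4.39. Within this uptake machinery, Lrp2 was thus higher and Amn lower, and Cubn was nearly level. Lrp2 was the 1 gene of the list past 2-fold, where 2.30% of all genes at FPKM 1 or above were higher. With the length trend removed Lrp2 was at a log2 ratio of 0.91, short of 2-fold. Cubn was then at -0.26 and Amn at -0.56. The lowest of the list was Rbp4, the carrier of retinol, with 2.84 and 1.47 (log2 ratio -0.91). Apoa1, Apoa2, Apob, Fga and Fgb were at or below 0.178 in both libraries. Apoe and Trf, secreted carriers of lipid and iron, were well expressed, with 128 and 91.6 for Apoe and 8.90 and 6.09 for Trf.

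Of 12 further endoderm factors and signals 6 had FPKM of at least 1. Cited1, a transcriptional coregulator, was the 1 gene of the list past 2-fold, with an FPKM of 5.11 and 1.97 (2.59-fold lower). The share lower past 2-fold was 3.57% over all genes with a highest FPKM between 1 and 10. Otx2, a homeobox factor of visceral endoderm and epiblast, was the highest with 4.42 and 8.78 (log2 ratio 0.97), and it was past 2-fold after rescaling to equal sums or removal of the length trend. Ihh, the Hedgehog ligand of the visceral endoderm, had 1.33 and 0.687. Of 7 parietal endoderm genes, 5 had FPKM of at least 1, and none was past 2-fold (of all genes, 2.30% higher and 2.03% lower). Of these 5 genes 2 lay above 0 and 3 below, or 4 and 1 after rescaling to equal sums. Their log2 ratios ran from -0.24 for Pth1r, the receptor for parathyroid hormone-related protein, to 0.28 for Lamb1, which is also in the basement membrane list.

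Trophectoderm, the other extraembryonic lineage of the blastocyst, was described with 6 markers. Hand1 had an FPKM of 0.403 in control cells and 1.25 after knockdown, and Gata3 had 0.547 and 1.36. Both were higher past 2-fold from a low level, among 3 of the 6 markers that reached FPKM 1. Of all genes with a highest FPKM between 1 and 10, 4.04% were higher past 2-fold. With 1 added in place of 0.1 neither Hand1 nor Gata3 was past 2-fold. Eomes was at 1.20 and 1.40, and Cdx2 at 0.157 and 0.268. Krt7 went the other way, with 0.534 in control cells and 0.448 after knockdown. Elf5 was at 0.0330 in control cells and listed at 0 after knockdown. The summed FPKM of the 6 markers was 2.88 and 4.73, against 52.0 and 44.9 for the 10 primitive endoderm genes. Within the latter sums Dab2 alone had 23.1 and 16.4, a difference of -6.76. The FPKM of all symbols summed to 613617 in control cells and 543206 after knockdown.

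**Figure D4:**
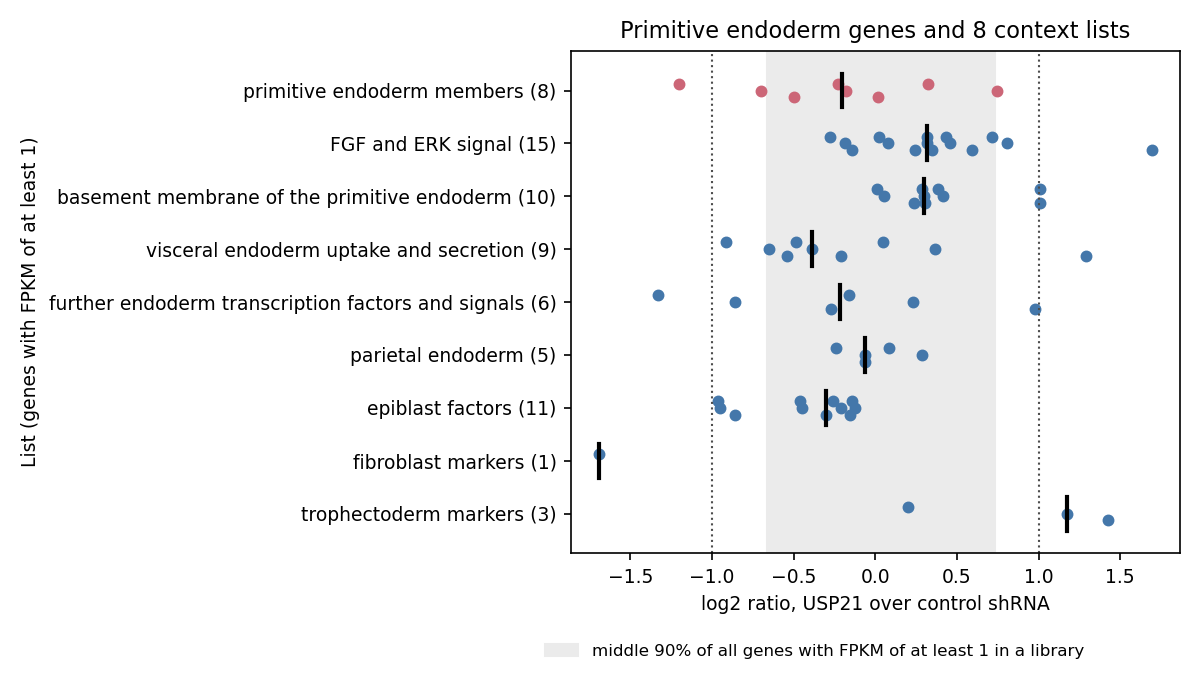
Log2 ratio of USP21 over control shRNA for genes with FPKM of at least 1 in a library, 1 point per gene, in the primitive endoderm group (red) and 8 context lists (blue), with the number of genes in brackets. Black bars are medians, the grey band holds the middle 90% of all 11927 genes at that level (-0.66 to 0.74), and dotted lines mark 2-fold. The red points run from -1.20 (Sox7) to 0.75 (Pdgfra).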

How the data were processed

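Total RNA of E14 cells was extracted with Trizol and sequenced as 2 libraries, 1 per shRNA. For each library the authors deposited a list of gene symbols with their FPKM. The submitters' processing notes name CASAVA 1.8.2, TopHat2 2.0.14, Cufflinks 2.2.1 and the build mm9, without saying what each was used for. The gene annotation and any scaling beyond FPKM are not given in the sources used here.

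The log2 ratio of knockdown over control, with 0.1 added to both FPKM values, was taken for all 23889 symbols. The median of the 10 members used genes with FPKM of at least 0.1 in a library, and list medians, sign counts and fold counts genes with at least 1. With 1 library per group there was no test, interval or detection floor. Transcript lengths (the longest coding transcript) and sequences came from GENCODE M21 (GRCm38), which held 94.6% of the symbols. Since the files rest on mm9, no genome coordinates are given. The length trend was removed by lowess (span 0.3). The single-fragment step was the most frequent FPKM × length, in bins of 5, among genes with 1 transcript over 800 bases and FPKM under 0.3.

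Alternatives were a constant of 1 or 0.01, equal sums, a median of 0, the length trend, no filter, FPKM of at least 5, and 1.5-fold. Named genes were the 10 members, Usp21, and in each list the highest, the lowest and those past 2-fold, and further list genes were named after their values were seen. The members and lists were chosen with earlier results of these data known. The scripts were tested on simulated data. Python 3.11.15, numpy 2.4.6, pandas 2.3.3, statsmodels 0.14.6 and matplotlib 3.10.9 were used.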

Additional observations from a re-analysis of the deposited data

How the results depend on the processing

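All 50 values of the 10 primitive endoderm genes under the 5 alternatives of constant, scaling and length kept their side of 0. For most of them this could not have been otherwise. A change of the constant cannot move a value across 0, and setting the median to 0 shifted values by only -0.003. Only equal sums and the length trend could have changed a side. Of the 50 values 2, both of Ttr, moved by more than 1.5-fold. The number of these genes lower past 2-fold was 1 as reported (Sox7), 0 with a constant of 1, 2 without a filter (Sox7 and Ttr) and 0 among genes with FPKM of at least 5. At 1.5-fold, 1 was higher and 2 were lower. For the 68 genes of the 6 lists on the FGF signal, the basement membrane, visceral and parietal endoderm, further endoderm factors and the epiblast, 4 were higher and 1 lower past 2-fold. Not all of the 68 reached FPKM 1. By list, in the order just given, 15, 10, 9, 5, 6 and 11 did, with Lamb1 in 2 lists. Of all 11927 genes at FPKM 1 or above, 2.30% were higher and 2.03% lower. With a constant of 1, 2 of the list genes were higher. With the length trend removed, 2 of them were lower. At 1.5-fold 8 were higher and 7 lower, against 7.77% and 6.46% of all genes at FPKM 1. Over all 11927 genes at that level 274 were higher and 242 lower past 2-fold as deposited. With a constant of 1 they were 108 and 100, and with equal sums 449 and 154. Of 206 further values of single lists, 189 stayed within the limits of 1.5 times a count or 1.5-fold for a median. Unless the filter was the alternative, these medians were over genes with FPKM of at least 0.1. The list medians given above, over genes with FPKM of at least 1, were not part of that count. No paired analysis was possible because each group holds 1 library, and no replicate could be left out. Depth limits Ttr and Afp most, which rest on a few fragments.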

Other observations

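Gata4 and Sox7 are neighbours on chromosome 14, with 6 protein-coding genes of the files between them in GENCODE M21 (GRCm38), of which 4 had FPKM of at least 1 in a library. Pinx1, the gene next to Sox7, had an FPKM of 17.4 in control cells and 18.0 after knockdown. Mtmr9 had a log2 ratio of -0.075, Xkr6 had 0.704 and 1.12, and Tdh, the threonine dehydrogenase of mESCs, had 191 and 123. On the far side of Gata4, Neil2 had 2.02 and 2.01. None of these genes was past 2-fold, so that Sox7 was the 1 gene of the stretch from Neil2 to Sox7 that was. Hnf4aos, which is annotated opposite Hnf4a, was listed at 0 in control cells and stood at 0.128 after knockdown. That value is just above the filter of 0.1, and whether the libraries were stranded is not given in the sources used here.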
